A study of Caenorhabditis elegans with 4 samples.

Results

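Histone genes of Caenorhabditis elegans were examined for binding of UNC-62, a homeodomain transcription factor of the MEIS class, in embryos. The members were all protein-coding genes whose symbol is his- followed by a number, 72 of the 19971 nuclear protein-coding genes in the RefSeq table of the WBcel235 assembly. Binding had been mapped by chromatin immunoprecipitation and sequencing (ChIP-seq) in hermaphrodite embryos of strain OP600. This strain has the mutant allele unc119(ed3) and the transgene wgIs600, which was made by bombardment and holds unc-62 fused to the tags TY1, EGFP and FLAG together with unc119 as its marker. Per the labels, the fusion protein follows the expression pattern of unc-62 itself. Animals were grown at 20 °C and crosslinked with 2% formaldehyde, and antibodies against GFP pulled down the fusion protein. The 4 samples are 2 UNC-62 ChIP replicates and 2 Input replicates from the same strain, so both groups carry the bombarded transgene, and no untagged strain was analysed here. Binding was read from 3 lists of regions, 1 per ChIP replicate and 1 for the whole series. No list of the Input samples was analysed here, so there is no test between groups, and everything below describes these lists.

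Nucleosomes are built from the core histones H2A, H2B, H3 and H4, and H1 binds the linker DNA between them. In most animals, including worms, core histone genes are short, mostly lack introns, occur in many near-identical copies and lie in clusters, and their mRNAs are made mainly while DNA is replicated, as in the dividing cells of an embryo. Genes of replacement variants, such as H3.3, are expressed outside DNA replication as well and tend to lie alone.

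A gene was counted as having a region when the midpoint of at least 1 region lay within its body or within 2 kb of either end. Both ends were used because the gene table gives no strand, so the upstream side of a gene is not known from it. This count is therefore the upper limit of a count over the upstream side and the body alone. The lower limit is the number of genes that hold a region whichever strand they lie on. The regions are on the WormBase WS220 build and the genes on WBcel235, which differ by about 100 bp at most, and distances between a region and a gene carry that uncertainty.

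Of the 72 his genes, a region was found for 33 by the series list, for 28 by replicate 1 and for 20 by replicate 2. In the series list this was 45.8% of the his genes against 36.1% of the 19899 other protein-coding genes. In replicate 1 it was 38.9% against 35.2%, and in replicate 2 it was 27.8% against 17.0%. The lower limits were close to or below those of other genes, with 9 his genes (12.5%) against 13.0% in the series list, 6 (8.33%) against 12.4% in replicate 1 and 3 (4.17%) against 4.63% in replicate 2. Averaged over both possible strands, the shares were 29.2% against 24.5%, 23.6% against 23.8%, and 16% against 10.8%. The shares of his genes were thus above those of other genes by the upper limit in each list, but not by the lower limit in any, and in replicate 1 the averages were nearly equal. The lower limit needs a midpoint in the gene body or on both sides, so it is lower for short genes. Median lengths were 384 bp for his genes and 2014 bp for other genes, so the lower limits are not a like measure. With a fixed length of 2.4 kb at either end, the shares were 45.8% against 33.1% in the series list and 38.9% against 32.2% in replicate 1. In replicate 2 the share of his genes was also above. The replicate 1 list admits regions with larger deposited values than the other 2 lists, which end just under 0.001. With values under 0.001 only, the shares over both sides in replicate 1 were 34.7% against 28.4%. Neighbouring his genes share regions, so the genes are not independent of each other. All 20 genes with a replicate 2 region also had one in the other lists, and how often this holds for other genes was not counted.

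**Figure D1:**
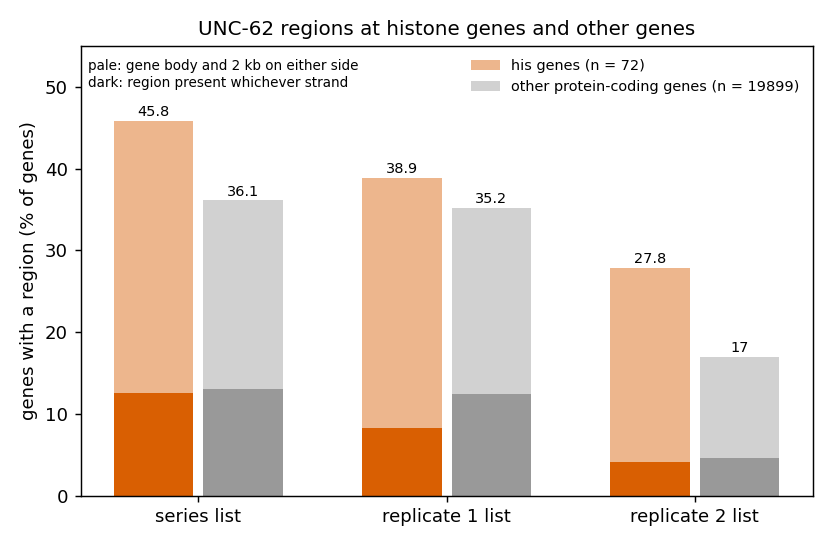
Percent of his genes (orange, n = 72) and of other protein-coding genes (grey, n = 19899) with at least 1 region in each list; pale bars count the gene body and 2 kb on either side, dark bars only genes with a region whichever strand they lie on. The pale bars of his genes stand at 45.8, 38.9 and 27.8%, above 36.1, 35.2 and 17.0% for other genes. The dark bars of his genes are not above those of other genes, but they are lower for short genes, as his genes are.

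Counting each shared region once, the his genes were served by 21 distinct regions of the series list, 19 of replicate 1 and 10 of replicate 2. His genes with 5 kb or less between them were joined into loci, which gave 19 loci. Of these, 10 had a region in the series list and the same 10 had one in replicate 1. Among the 10, his-74 counted in replicate 1 only through a region of 3 bp, whose midpoint was nearer to another gene, ccch-3. Replicate 2 had a region at 8 loci, and each of these was among the 10. The other 9 loci, with 32 of the 72 genes, had none in the series list. Among them was the pair of his-38, an H4 gene, and his-40, an H3 gene, on X, which had no region in any list. Like stretches of other genes were not counted, and the shares of single genes are not a like measure for loci.

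**Figure D2:**
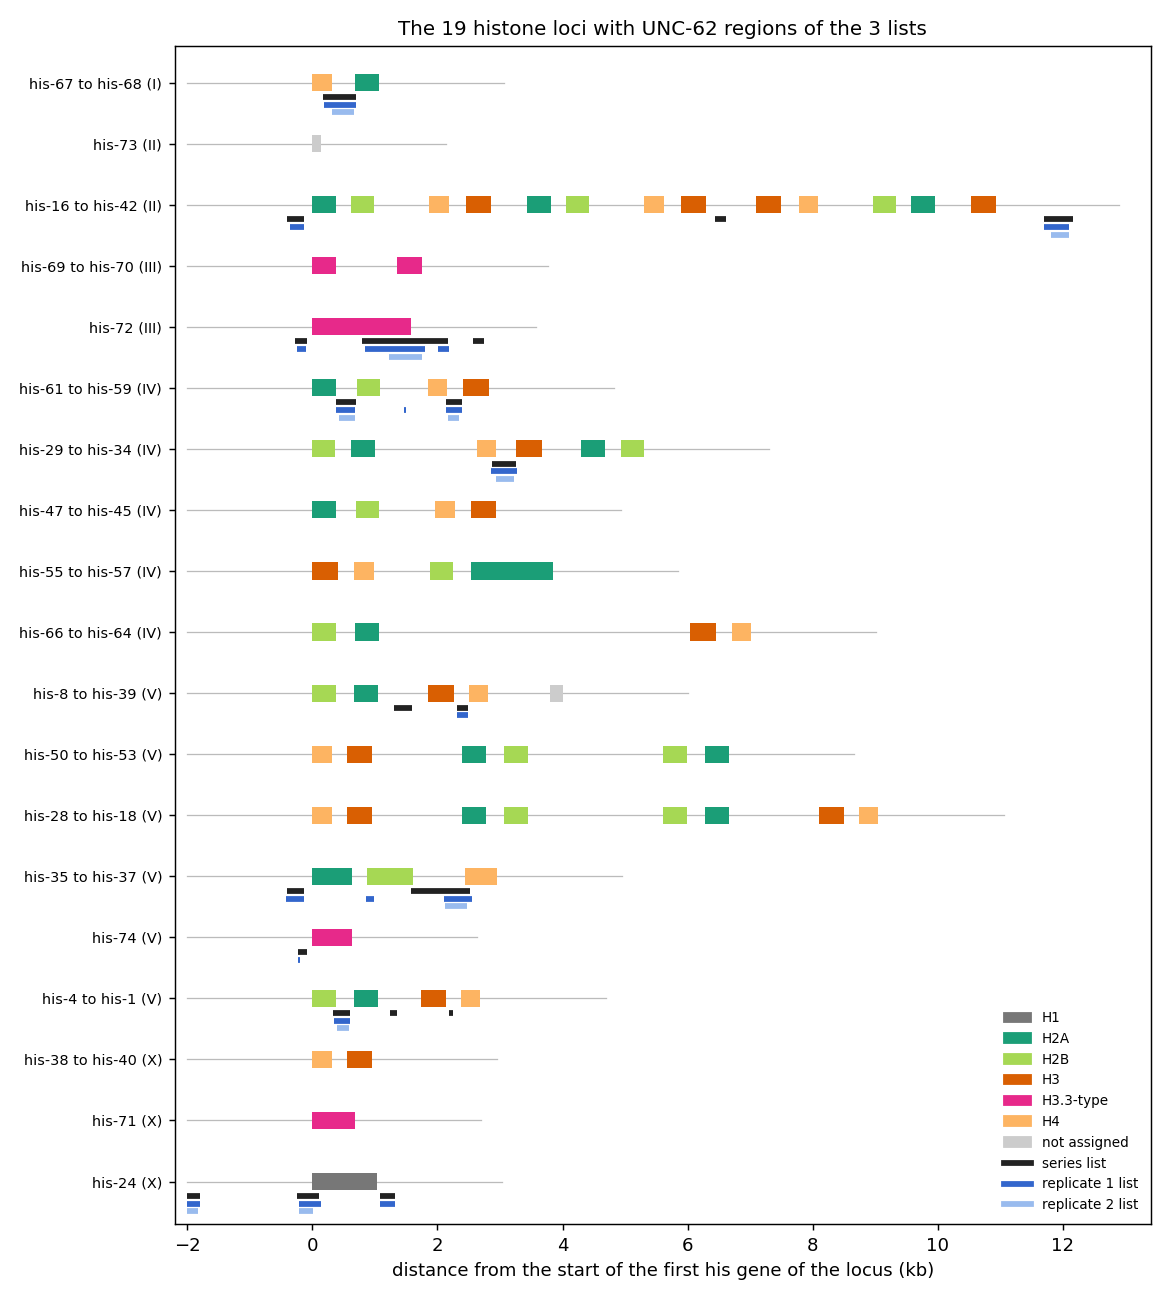
Each row is 1 of the 19 loci, with his genes as boxes coloured by histone class and the regions within 2 kb as bars below them, black for the series list, dark blue for replicate 1 and light blue for replicate 2; the horizontal axis is the distance in kb from the first his gene and the chromosome is in parentheses. Of the 21 series regions, 7 lie in short gaps between his genes and 3 in longer ones, and 9 rows hold none.

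By position, 7 of the 21 series regions had their midpoint in a short gap between neighbouring his genes, 3 in a longer gap within a locus, 1 in a his gene and 10 elsewhere within 2 kb. The same numbers were 6, 1, 2 and 10 in replicate 1 and 5, 0, 1 and 4 in replicate 2. There were 31 short gaps, of 500 bp or less, 14 between an H3 and an H4 gene, 16 between an H2A and an H2B gene and 1 between his-67, an H4 gene, and his-68, an H2A gene. They were 227 to 368 bp long. A region midpoint lay in 7 of the 31 gaps in the series list (22.6%), in 6 in replicate 1 (19.4%) and in 5 in replicate 2 (16.1%), and the same 5 gaps held a region in all 3 lists. Of 5500 gaps of that size between other neighbouring protein-coding genes, 8.13%, 7.76% and 2.98% held a midpoint. Among the 1374 of those gaps that were as long as the his gaps, from 227 to 368 bp, the shares were 12.7%, 11.9% and 4.29%. These other gaps include all orientations of the flanking genes, and the 7 his gaps lie in only 5 loci. The gaps were singled out after the values were seen.

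The strongest gap region of the series and replicate 1 lists lay between his-67 and his-68 on chromosome I, at I 9988629 to 9989146 on WS220 (518 bp). Strength is given here by the value that PeakSeq listed for a region, read as a p or q value, so that smaller is stronger; it depends on depth and is compared only by rank within a list. The region had a value of 1.71e-43 in the series list, 1.91e-32 in replicate 1 and 1.71e-12 in replicate 2. It ranked within the strongest 4.19%, 3.38% and 14.7% of the lists. It covered the whole 368 bp gap in the series and replicate 1 lists.

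On chromosome IV, the H4 gene his-31 and the H3 gene his-32 had nearly as strong a region in the 321 bp between them, at IV 8333919 to 8334306 (388 bp). Its values were 6.99e-43, 1.16e-30 and 4.87e-13 in the series, replicate 1 and replicate 2 lists, at ranks of 4.42%, 3.79% and 13.6%. In replicate 2 it was stronger than the region of his-67 and his-68. The same cluster has 2 H2A and H2B pairs, his-29 with his-30 and his-33 with his-34, and neither of their gaps held a region in any list. This region also accounts for the count of his-33 and his-34, which lie within 2 kb of it.

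The cluster of his-61, his-62, his-60 and his-59, also on IV, had a region in both of its gaps in all 3 lists. Between the H2A gene his-61 and the H2B gene his-62 lay IV 7486215 to 7486524, with values of 3e-31, 1.51e-21 and 2.98e-11 and ranks of 7.66%, 7.43% and 18.1%. Between the H4 gene his-60 and the H3 gene his-59 lay IV 7487962 to 7488221, with values of 3.59e-16, 8.9e-12 and 6.86e-05 and ranks of 20.9%, 18.9% and 67.6%. The H2A and H2B gap thus ranked above the H3 and H4 gap in each list.

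On chromosome V, the cluster of his-1 to his-4 had a region in both gaps of the series list but in 1 gap of the replicates. The region between the H2B gene his-4 and the H2A gene his-3, at V 16040481 to 16040751, had values of 1.33e-13, 3.74e-09 and 0.00054, and in replicate 2 it was among the weaker regions at 90.4%. The gap between his-2 (H3) and his-1 (H4) held a region of 77 bp with a value of 8.44e-07 in the series list alone. Another series region, 109 bp wide, lay between the pairs. The gap between his-6 (H3) and his-5 (H4) held a region at V 8535019 to 8535195 with a value of 4.31e-07 in the series list and 1.67e-05 in replicate 1, and none in replicate 2.

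**Figure D3:**
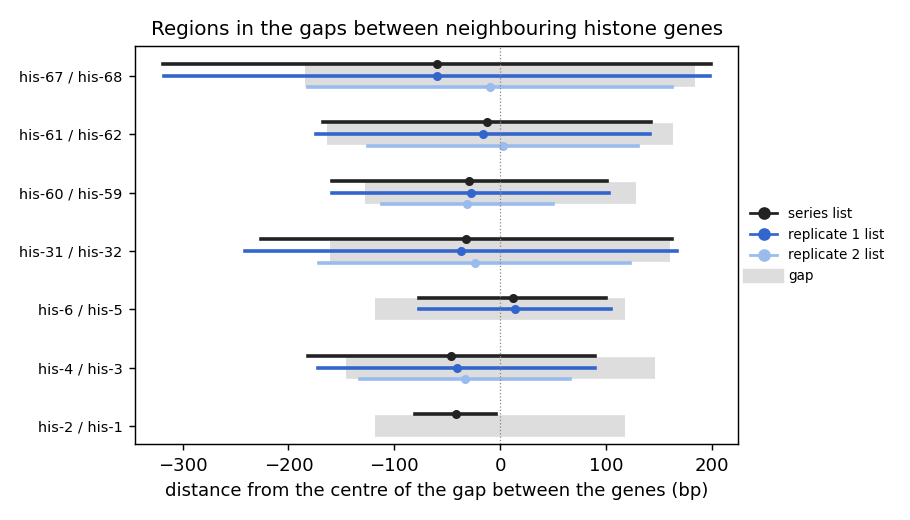
The 7 gaps between neighbouring his genes that hold a series region (grey, drawn to scale), with the extent (line) and midpoint (dot) of the region in each list; the horizontal axis is the distance in bp from the centre of the gap. Midpoints lie within 60 bp of the centre in every list.

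Series midpoints in these gaps lay from 60 bp to the left of the gap's centre to 12 bp to its right, with a median distance of 32 bp. The gaps were chosen for holding a midpoint, which limits this distance beforehand, and it is inside the uncertainty of the build. In the bodies of his genes, a midpoint lay in his-72 in each list and in his-41 in replicate 1 alone. In the series list this was 1.39% of the his genes against 9.66% of other genes, but his genes are short, with a median length of 384 bp against 2014 bp. Per Mb of gene body, the numbers of midpoints in his and other genes were 32.9 and 47.9 in the series list, 65.8 and 46.5 in replicate 1 and 32.9 and 16.3 in replicate 2, so the direction was not the same in the 3 lists, and each his value rests on 1 or 2 midpoints. Among 19 longer gaps within loci, from 577 to 2170 bp, 3 held a midpoint in the series list, 1 in replicate 1 and 0 in replicate 2. These are 15.8%, 5.26% and 0%, against 16.2%, 15.9% and 7.28% of 6061 gaps of that length range between other neighbouring protein-coding genes.

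The large clusters differed from each other. Of 10 loci with 4 or more his genes, 5 had a region in the series list and in replicate 1, and 4 in replicate 2. The other 5, with 26 genes, had none in any list. On chromosome V these were the loci from his-50 to his-53 (6 genes) and from his-28 to his-18 (8 genes), which lie in 1 stretch of 117 kb without a series region. On IV they were the loci from his-47 to his-45 and from his-55 to his-57, which share a stretch of 36.6 kb free of regions, and the locus from his-66 to his-64, in one of 45.1 kb. Other genes without a series region lay in stretches with a median of 43.2 kb and a 90th percentile of 131 kb, so the stretches on IV were near the median and that on V was nearer to the 90th percentile.

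Clusters without regions included repeated copies. The 6 genes from his-50 to his-53 and the first 6 from his-28 onward were of the same classes in the same order, and all 6 lay at identical positions relative to the first gene. Of the 31 gaps, 9 had a length that no other his gap had, and 4 of these held a region in each of the 3 lists. The other 22 gaps had 1 of 8 lengths found more than once, and 3 of them held a region in the series list, 2 in replicate 1 and 1 in replicate 2. The 6 gaps of 292 bp, all between H2A and H2B genes of V, included the gap of his-4 and his-3 and 5 without a region. Equal length does not show equal sequence, and reads that match several copies can be lost or split in mapping. The sources used here do not say how such reads were treated, and their part in the absence of regions was not tested.

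The largest cluster, 13 genes on II from his-16 to his-42, had no region in any of its 6 gaps in any list. Its 3 series regions lay at its ends and in 1 longer gap. Beyond his-42, an H3 gene, lay II 13829460 to 13829920, with values of 5.39e-13, 2.82e-08 and 0.000274 and ranks of 27.5%, 29.6% and 82.1%, but its midpoint was 993 bp from his-42 and 912 bp from F08G2.4. Next to his-16, an H2A gene, a region with a value of 0.000213 in the series list and 0.00221 in replicate 1 had its midpoint inside ZK131.11. The third, between his-9 and his-25, had a value of 0.000859 in the series list alone. Through these 3 regions 8 of the 13 genes were counted in the series list, 4 in replicate 1 and 1 in replicate 2.

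By class, shares in the series list ranged from 37.5 to 50.0% for the core histones, against 36.1% of other genes. A region was counted for 8 of 17 H2A genes (47.1%), 6 of 16 H2B genes (37.5%), 7 of 15 H3 genes (46.7%) and 8 of 16 H4 genes (50.0%). In replicate 1 the numbers were 8 (47.1%), 5 (31.2%), 5 (33.3%) and 6 (37.5%), against 35.2% of other genes, so H2B and H3 were below. In replicate 2 the numbers were 5 (29.4%), 4 (25.0%), 4 (26.7%) and 5 (31.2%), against 17.0% of other genes. Genes of different class share their regions within a cluster, so these counts cannot tell the classes apart. Of the 2 genes left without a class because their models are short, his-39 had a region, shared with his-5, his-6 and his-7, and his-73 had none.

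The 5 genes of the H3.3 type, which encode replacement H3, were unlike each other. At his-72 on III, a broad region of 1369 bp, III 12368275 to 12369643, overlapped the gene and had values of 5e-29, 5.51e-17 and 1.76e-08, at ranks of 8.53%, 10.9% and 28.7%. This was the widest region at any his gene in each list, with 965 bp in replicate 1 and 534 bp in replicate 2. At his-74 on V, a region of 142 bp had a value of 0.000911 in the series list, near the end of that list at 98.8%, and a 3 bp region in replicate 1 had a value of 0.00988; replicate 2 had none. The midpoint of the series region was nearer to ccch-3 (52 bp) than to his-74 (162 bp). No region was listed for his-69, his-70 or his-71 in any list.

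At his-24 on X, the H1 gene among the his symbols, 3 regions were listed in the series and replicate 1 lists and 2 in replicate 2. The region at the left end of the gene, X 14489849 to 14490205, had values of 4.84e-13, 3.02e-09 and 0.000144, at ranks of 27.3%, 25.7% and 74.3%. A region near the 2 kb limit, X 14487975 to 14488299, had values of 1.33e-12, 6.21e-09 and 5.78e-05. The third, X 14491174 to 14491407, had values of 9.62e-06 and 3.91e-05 and no counterpart in replicate 2. No other protein-coding gene lay within 2 kb of the midpoints of these 3 regions.

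The strongest region near any his gene lay on V beside his-37, an H4 gene whose model, like those of the H2A gene his-35 and the H2B gene his-41 next to it, is longer than the cluster copies. In the series list it ran from V 9546228 to 9547175 (948 bp) and in replicate 1 from V 9546766 to 9547213 (448 bp). Its values were 3.35e-46, 3.38e-43 and 7.01e-17, at ranks of 3.79%, 1.79% and 8.35%. The midpoint of the series region lay inside C50F4.6, a protein-coding gene between his-41 and his-37, and 404 bp from his-37, whereas in replicate 1 it lay 116 bp from his-37 and 148 bp from C50F4.6. Which gene the region belongs to cannot be told apart from these lists. A further region, V 9544245 to 9544525, with values of 1.87e-14 and 3.06e-10 and none in replicate 2, lay 274 bp from his-35 and 159 bp from mdf-1.

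Over all 21 series regions at his genes the median rank was 28.6% of the list, where 50% is the middle, and 5 were among the strongest 10% and 5 among the weakest 10%. In replicate 1 the median was 27% over 19 regions and in replicate 2 it was 47.2% over 10. The middle is that of all regions of a list, wherever they lie. Median ranks of regions at other genes are not given here, so these medians are not shown to be particular to his genes. The 7 gap regions had a median of 20.9% in the series list, and the 3 regions in longer gaps had one of 98.4%. Of the 21 series regions, 10 overlapped a region in both replicates (47.6%, against 36.7% of the whole list), and 5 overlapped none in either (23.8%, against 14.2%). All 10 replicate 2 regions overlapped a region in each other list. The share of the whole replicate 2 list was not counted, so this is not shown to be particular to his genes. Another protein-coding gene lay within 2 kb of 13 of the 21 midpoints, and for 7 the nearest gene was not a his gene.

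**Figure D4:**
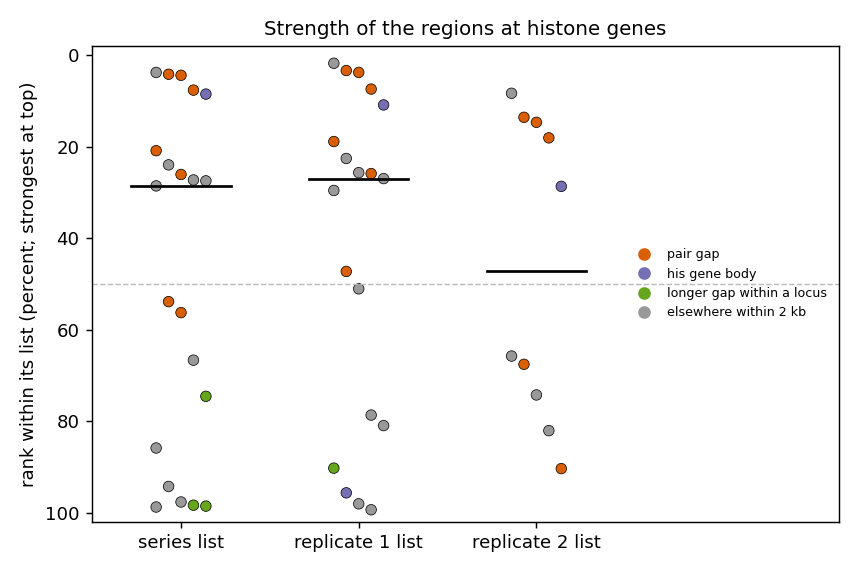
Rank of each region at a his gene within its own list, in percent with the strongest at the top, coloured by position; the horizontal bar is the median (28.6, 27 and 47.2%) and the dashed line marks the middle of a list. Regions spread from the strongest to the weakest end of the lists, and those in the gaps between paired genes include 3 of the 5 series regions in the strongest 10%.

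Related genes outside the his symbols were counted in the same way. Of 11 genes of other histone variants, 5 had a series region, 6 a replicate 1 region and 3 a replicate 2 region, where the shares of other genes were 36.1%, 35.2% and 17.0%. The lower limits were 3, 4 and 2 of the 11, where the shares of other genes by that limit were 13.0%, 12.4% and 4.63%. The strongest were at hil-7 and hil-5, both H1-like genes, with series values of 4.24e-57 and 2.88e-42, replicate 1 values of 4.42e-40 and 2.22e-29 and replicate 2 values of 3.77e-24 and 6.32e-09. At htz-1, which encodes H2A.Z, the values were 1.1e-21, 1.85e-17 and 2.82e-07. Of the centromeric H3 genes, cpar-1 had no region in any list and hcp-3 had 1 in replicate 1 alone, with a value of 0.0087.

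Of 12 genes for histone chaperones and for a factor that binds histone mRNA, 9 had a region in the series list and in replicate 1, and 5 in replicate 2, beside the same shares of other genes. The 5 were chaf-1, a subunit of the CAF-1 assembly factor, unc-85, a form of the chaperone ASF1, cdl-1, the stem-loop binding protein of histone mRNA, and rba-1 and lin-53, WD-repeat histone-binding proteins that share 1 region. For chaf-1 the strongest values were 3.62e-18, 3.95e-13 and 5.49e-06, at ranks of 17.7%, 16.4% and 50%. For cdl-1 they were 2.06e-07, 0.000834 and 0.000365, at ranks of 51.7%, 71.4% and 85%. The region shared by rba-1 and lin-53 ranked at 99.8% in replicate 2, near the end of that list. No region was listed for asfl-1, hira-1 or hmg-3. By the lower limit, only 1 of the 12 held a series region whichever strand it lies on, 0 a replicate 1 region and 1 a replicate 2 region, where the shares of other genes were 13.0%, 12.4% and 4.63%.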

How the data were processed

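The authors deposited 3 lists of regions, which name PeakSeq as their source and WormBase WS220 as their build, per the file headers and columns. The PeakSeq version, the aligner, the treatment of reads with several matches and the making of the series list are not given in the sources used. Each region carries 1 deposited value without a name, treated as a p-value or q-value; it reaches 0.00999 in replicate 1 and 0.000998 and 0.000997 in the replicate 2 and series lists, so replicate 1 has a looser limit. The lists hold 7782, 3138 and 7964 regions. They give no counts, so depth is unknown, and the sources do not say whether the replicates are separate cultures.

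Midpoints were assigned to RefSeq protein-coding genes (WBcel235) with pandas 2.3.3 and numpy 2.4.6; the assignment was tested on simulated regions. All 72 his genes entered, with no filter. Histone classes were assigned by gene name; most models of H4, H3 and H2A genes had the same length within a class (312, 411 and 384 bp). The planned windows upstream of the 5′ end were widened to both sides because the table gives no strand. Sequences were not used here, so the planned motif counts were not run. Named were the his genes of the 10 strongest regions, those outside loci of 4 or more, and empty loci. Members and lists were chosen with earlier results of these data known; the gap counts, gap lengths and layout comparison were added after seeing the values. No test was made.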

Additional observations from a re-analysis of the deposited data

How the results depend on the processing

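Of 52 alternative values, 43 stayed within 1.5 times the main count or median and 9 did not. Some could not move. A limit of 0.001 leaves the series and replicate 2 lists whole, since their values end at 0.000997 and 0.000998. Counting only genes with a region whichever strand they lie on gave 9, 6 and 3 his genes in the series, replicate 1 and replicate 2 lists, and giving each region to the gene with the nearest edge alone, which takes shared regions from all but 1 gene by construction, gave 12, 10 and 7. In these 6 cases the share of his genes was below that of other genes. The count on whichever strand is lower for short genes, and his genes are shorter than other genes. In the other 29 of 35, all with both sides of a gene counted, it was above. Some of the 29 repeat main values and add nothing. These are the limit of 0.001 in the series and replicate 2 lists, and each replicate's list taken alone. With 500 bp on either side the replicate 2 count was 13. Without 1 replicate, that is with the other replicate's list alone, the series count of his genes was 20 to 28, of loci 8 to 10, of distinct regions 10 to 19 and of gaps with a region 5 to 6. With H3 and H4 and H2A and H2B pairs taken as divergent, the textbook arrangement, the counts were 27, 23 and 17. These are 37.5%, 31.9% and 23.6% of the his genes. Other genes were not counted in this way, and their shares over both sides are not a like measure. Shifting the gaps by 100 bp left 5 or 7 with a region. No paired analysis was possible because no list of the Input samples was analysed here. The assignment to the nearest 5′ end and the motif counts were not run. The limit that depth sets on replicate 2 cannot be given without read counts.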
